A study of Mus musculus with 12 samples.

Results

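A set of 9 genes of the Hedgehog pathway was followed in 3 mouse cell lines. They were chosen by name, as the 3 secreted ligands (Shh, Ihh and Dhh), the receptor Ptch1, the signal transducer Smo, the inhibitor Sufu and the transcription factors Gli1, Gli2 and Gli3. Of these 9 genes, 8 had probes among the 25128 genes and unnamed targets of the array, with 3 probes each, or 24 probes in all. The mRNA of Gli2 is not analysed here. The lines were AtT20, derived from a pituitary tumor of corticotroph cells, BV2, an immortalized microglial line, and N18, a neuroblastoma line, and each cell type was thus represented by 1 line. All were grown in the same serum-containing medium and none was treated or stimulated, so the values describe basal mRNA. The study kept the BV2 cells under conditions meant to favour a resting, non-activated state. For each line, 4 plates were extracted separately and each plate was hybridised to 1 single-colour (Cy3) array, 12 arrays in all. The study asked which receptors and signaling genes each line expresses.

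Hedgehog ligands are lipid-modified proteins that bind Ptch1, a membrane protein which, when free of ligand, holds the seven-transmembrane protein Smo inactive. Active Smo gathers in the primary cilium and releases the Gli factors from Sufu, after which full-length Gli proteins switch on target genes. Without ligand, Gli3 in particular is cut to a repressor. Ptch1 and Gli1 are themselves targets of the pathway in many tissues, and the pathway is known for patterning the ventral neural tube and for its part in the growth of the pituitary.

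Levels are given as the log2 of the mean of a gene's probes minus the mean of 10 seminal proteins on the same plate, which serve as genes that these cells should not express. A gene was called above threshold in a line when the mean of its 4 plates was over a threshold of 2 SD of those seminal proteins (taken on each plate and then averaged). The threshold was 0.37 ± 0.11 (SD, n = 4) for the plates labelled AtT20, 0.56 ± 0.15 for BV2 and 0.74 ± 0.10 for N18. Differences between lines are on another scale, the quantile-normalised log2 signal, and were tested with limma, with p adjusted over all 25128 genes and targets. Levels of different genes were not ranked against each other, because each probe binds with its own efficiency.

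The labels were checked against cell type markers first. BV2 had 6 of 7 microglial markers above threshold (mean level of the list 3.35 to 4.01 over the plates) and N18 had 9 of 10 neuroblast and neuronal markers (2.79 to 3.12). The plates labelled AtT20 had 0 of 8 corticotroph markers above threshold (mean level of the list 0.03 to 0.09), Pomc, the defining hormone gene, among them at 0.29, and they are called by their label throughout. They had 3 of 6 fibroblast, 2 of 4 epithelial and 6 of 10 neuroblast and neuronal markers above threshold, and 0 of 7 microglial ones. Markers of other cell types passed in the other lines as well. BV2 had 2 of 8 corticotroph markers (Pomc at 0.67 among them), 6 of 10 neuroblast and neuronal, 2 of 6 fibroblast and 2 of 4 epithelial ones, and N18 had 4 of 8 corticotroph, 2 of 7 microglial, 3 of 6 fibroblast and 3 of 4 epithelial ones. Of 8 genes that all cells use, 7 passed in each line. Among all genes and targets of the array, the share that passed was 53.3% for BV2, 55.4% for N18 and 35.0% for the label AtT20. The marker lists are short, and whether their counts differ from these shares was not tested. The plates labelled AtT20 also stood apart as arrays. The middle 50% of their probe values spanned 0.38 to 0.78 log2 units, against 1.28 to 1.73 in BV2 and 1.91 to 2.21 in N18, and their correlation with the arrays of the other lines was 0.40 to 0.50, where BV2 and N18 arrays correlated at 0.79 to 0.82. The part of this narrow range in the differences below was not tested. The median difference over all genes moved with the scaling: for the plates labelled AtT20 minus BV2 it was 0.23 after quantile normalisation, 1.08 without normalisation and -0.28 relative to the seminal proteins, and minus N18 it was 0.25, 0.85 and -0.54. For N18 minus BV2 it was -0.06, 0.15 and 0.18. Each difference that follows was therefore computed under all 3 scalings. The comparison of N18 with BV2 leaves out the levels of the plates labelled AtT20 but is not independent of them. All arrays were quantile-normalised together and shared an estimate of the spread. With only the 8 arrays of this pair fitted, 6509 genes and targets were called higher in N18 and 9000 lower, against 4775 and 5495 in the main fit. In lysates of whole plates, fewer expressing cells and less RNA per cell cannot be told apart.

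The receptor Ptch1 was above threshold in BV2 and N18 and not in the plates labelled AtT20, Smo passed in BV2 alone, Gli3 passed in the plates labelled AtT20 alone, and Sufu passed in all 3 lines. The ligands and Gli1 were below threshold in every line, Ihh and, in N18, Dhh by a margin that depended on the controls. In counts, BV2 had 3 of 8 members above threshold, where 53.3% of all genes and targets passed, N18 had 2 of 8 against 55.4%, and the plates labelled AtT20 had 2 of 8 against 35.0%.

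**Figure D1:**
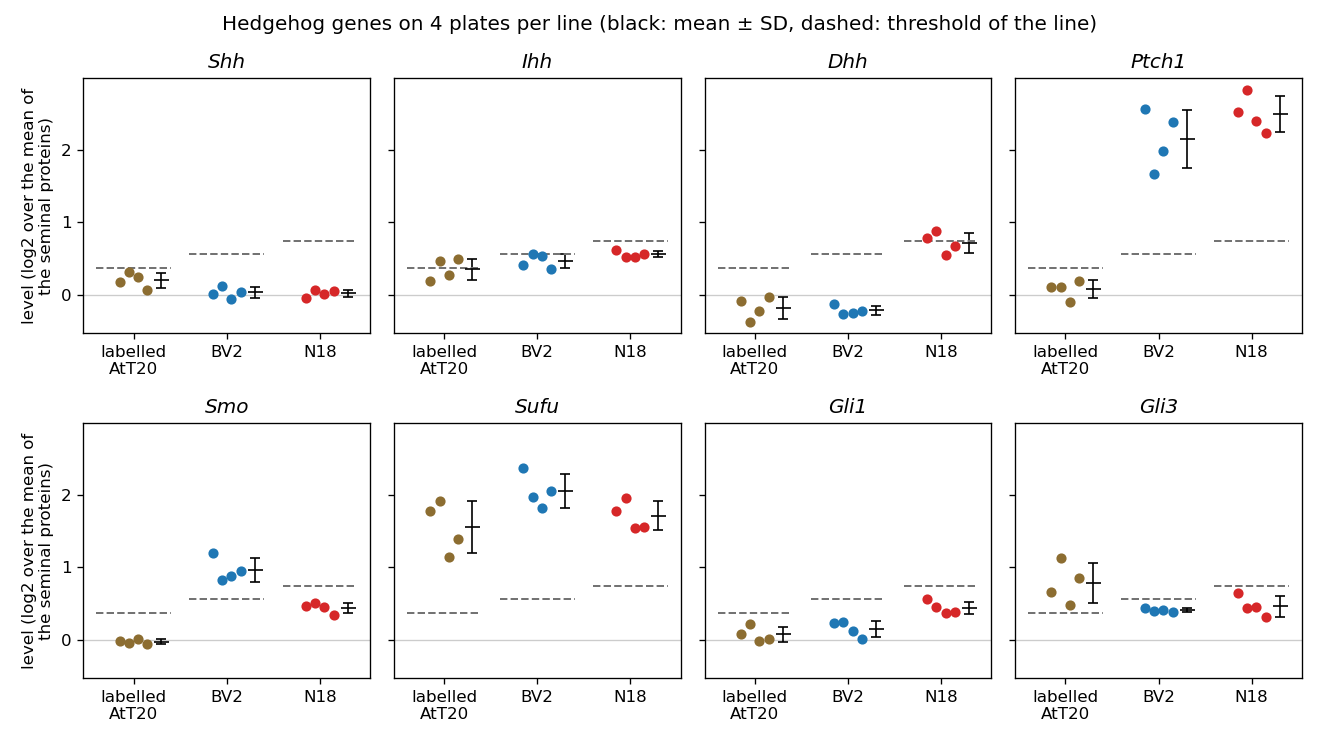
Level of the 8 members on each plate (log2 over the mean of the seminal proteins), 1 dot per plate and 4 plates per line, with the mean ± SD in black and a dashed line at the threshold of each line. Ptch1 is at 1.67 or higher on all BV2 and N18 plates and at 0.19 or lower on the plates labelled AtT20, and Sufu is above the threshold in all 3 lines.

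The stretches of DNA before the start of the members were read from a table of RefSeq promoter windows (build GRCm38.p6) that holds 7 of the 9 members, Gli2 among them and not Gli1 and Shh. They are shown for Ptch1, Smo and Gli3, the members whose call was not the same in every line, as the 250 bases before the annotated start on the strand of the gene. Capitals mark the GC box, searched as GGGCGG on both strands. Ptch1 lies at chr13:63565736-63565985 on the minus strand, and its annotated start falls within the gene's full span. Smo lies at chr6:29735247-29735496 and Gli3 at chr13:15463473-15463722, both on the plus strand.
Ptch1: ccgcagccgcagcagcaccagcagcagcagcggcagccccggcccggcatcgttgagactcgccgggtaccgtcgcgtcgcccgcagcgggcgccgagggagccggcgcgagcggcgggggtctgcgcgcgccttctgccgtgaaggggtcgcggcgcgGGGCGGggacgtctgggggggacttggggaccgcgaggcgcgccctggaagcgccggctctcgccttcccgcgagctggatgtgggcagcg
Smo: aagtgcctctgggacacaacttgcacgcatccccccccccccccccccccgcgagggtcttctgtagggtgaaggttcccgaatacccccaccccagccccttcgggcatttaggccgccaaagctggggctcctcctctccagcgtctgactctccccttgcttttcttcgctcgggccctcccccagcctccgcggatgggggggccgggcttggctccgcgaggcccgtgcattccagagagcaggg
Gli3: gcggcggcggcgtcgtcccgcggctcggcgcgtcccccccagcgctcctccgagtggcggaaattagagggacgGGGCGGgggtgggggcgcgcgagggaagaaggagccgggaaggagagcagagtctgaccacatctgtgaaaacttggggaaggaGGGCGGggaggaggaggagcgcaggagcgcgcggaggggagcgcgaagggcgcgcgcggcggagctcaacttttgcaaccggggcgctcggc
The GC content was 78.4% for Ptch1, 68.4% for Smo and 72.8% for Gli3, where the median of all 32851 windows was 52.4%. Ptch1 held 1 GC box, Gli3 held 2 and Smo held none. A GC box was present in 6 of the 7 member windows and in 32.7% of all windows. The core of the Gli binding site, GACCACCCA, was found on either strand in 0 of 7 member windows and in 0.225% of all windows, and the TATA box, TATAAA, in 0 of 7 and 12.4%. These are matches of letters in 250 bases and say nothing of what lies outside them.

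Of the ligands, Dhh, or Desert hedgehog, known from Schwann cells and the testis, lay just under the threshold in N18. Its level in N18 was 0.78, 0.87, 0.55 and 0.67 on the 4 plates, a mean of 0.72 ± 0.14 (SD, n = 4) against a threshold of 0.74. In BV2 it was -0.12, -0.27, -0.26 and -0.22, and on the plates labelled AtT20 -0.09, -0.37, -0.23 and -0.03. On this scale all N18 plates lay above all plates of the other lines, though every mean was below its threshold. The call in N18 rested on the choice of plates and controls: the level passed without N18 plate 1 (0.70) or plate 3 (0.77), whose removal also moves the threshold, and without the highest seminal protein (0.79). Its signal was higher in N18 than in BV2 by 0.57 (SE 0.11, adjusted p = 0.000495), a direction and call that held without normalisation (0.90) and relative to the seminal proteins (0.93). For the plates labelled AtT20 minus N18 the difference was -0.46 (SE 0.11, adjusted p = 0.00121), and it turned to 0.49 (adjusted p = 0.0106) without normalisation. The probes did not act alike. Probe 3 was at 1.44 ± 0.17 in N18, probe 2 at 0.56 ± 0.20 and probe 1 at -0.43 ± 0.06, so 1 of the 3 probes exceeded the threshold of the line. From BV2 to N18, probes 2 and 3 rose by 0.56 and 0.98 (adjusted p over all 72000 probes = 0.00865 and 0.000648), while the difference of probe 1 was -0.09 (adjusted p = 0.81).

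Shh, Sonic hedgehog, which patterns the neural tube and limb, stayed near the seminal proteins. Its level ranged over the plates from 0.06 to 0.32 in those labelled AtT20, from -0.05 to 0.12 in BV2 and from -0.05 to 0.07 in N18. Ihh, Indian hedgehog, which acts in cartilage and gut, ranged in the same order of lines from 0.19 to 0.49, from 0.35 to 0.56 and from 0.52 to 0.61. Its mean of 0.35 ± 0.15 on the plates labelled AtT20 lay just under the threshold of 0.37 and passed it without plate 1 (0.41). Without the highest seminal protein, Ihh passed in all 3 lines (0.39 with the label AtT20, 0.52 in BV2 and 0.63 in N18). Neither gene passed the test between N18 and BV2 (-0.12, SE 0.14, adjusted p = 0.542, and -0.12, SE 0.13, adjusted p = 0.479). After quantile normalisation the Shh plates of N18 and BV2 did not overlap, and the SE includes the spread of the plates labelled AtT20.

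Ptch1, the receptor for all 3 ligands, split the lines. Its level was 2.56, 1.67, 1.99 and 2.38 on the BV2 plates (2.15 ± 0.40) and 2.53, 2.83, 2.4 and 2.24 on the N18 plates (2.50 ± 0.25). On the plates labelled AtT20 it was 0.11, 0.10, -0.10 and 0.19 (0.08 ± 0.13). The BV2 and N18 plates overlapped, and none of them reached the range of the plates labelled AtT20. The signal on the plates labelled AtT20 was lower than in BV2 by a log2 difference of -1.47 (SE 0.14, adjusted p = 7.38e-08) and lower than in N18 by -1.23 (SE 0.14, adjusted p = 5.4e-07), and both calls kept their sign under all 3 scalings. Since Ptch1 was below threshold on the plates labelled AtT20, the fold is a bound, taken plate by plate against the threshold there, or against the measured level where that was higher, and given as the smallest over the 3 scalings. The Ptch1 signal was at least 1.3-fold higher in BV2 and at least 1.3-fold higher in N18. Between N18 and BV2 the difference was -0.24 (SE 0.14, adjusted p = 0.184), and its sign turned without normalisation (0.32) and relative to the seminal proteins (0.35), so that no order of these lines was measured for Ptch1.

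Of the 3 Ptch1 probes, 2 carried the signal. Probe 1 was at 3.08 ± 0.48 in BV2 and 3.43 ± 0.32 in N18, and probe 2 at 1.81 ± 0.30 and 2.22 ± 0.20. Probe 3, at 0.40 ± 0.26 and 0.54 ± 0.14, was below the threshold of both lines. On the plates labelled AtT20 the 3 probes averaged 0.02, 0.17 and 0.01, so that none exceeded the threshold. Probes 1 and 2 were lower there than in BV2 by the probe test, with differences of -2.54 and -0.93.

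Smo, the transducer on which the pathway's small-molecule inhibitors act, was above threshold in BV2, on a single probe. Its level was 1.2, 0.83, 0.88 and 0.95 on the BV2 plates (0.96 ± 0.16), 0.46, 0.50, 0.45 and 0.34 in N18 (0.44 ± 0.07) and -0.02, -0.05, 0.02 and -0.06 on the plates labelled AtT20 (-0.03 ± 0.03). All BV2 plates lay above those of the other lines on this scale. The Smo signal was lower in N18 than in BV2 by a log2 difference of -0.65 (SE 0.09, adjusted p = 2.42e-05), with the same call without normalisation (-0.56, adjusted p = 0.012) and relative to the seminal proteins (-0.53, adjusted p = 8.87e-05), but not with the median of the probes (-0.29, adjusted p = 0.0532). As a bound, it was at least 1.1-fold higher in BV2. The difference between the plates labelled AtT20 and BV2 was -0.62 (SE 0.09, adjusted p = 1.3e-05) after quantile normalisation and turned to 0.37 without normalisation. Against N18, where Smo was also below threshold, it was 0.03 (adjusted p = 0.808), with 0.92 (adjusted p = 2.64e-06) without normalisation and -0.47 (adjusted p = 0.000134) relative to the seminal proteins, so that no order of these lines was measured.

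Probe 3 of Smo was at 1.78 ± 0.24 in BV2 and 1.09 ± 0.13 in N18, above the threshold in both, while probe 1 (0.06 ± 0.29 and -0.41 ± 0.18) and probe 2 (0.44 ± 0.13 and 0.24 ± 0.11) were not. The mean of the probes therefore passed in BV2 and failed in N18 although the same probe exceeded the threshold in both lines. The BV2 call was lost with the median of the probes (0.48), with olfactory receptor genes as the controls (0.71) and when at least 2 probes were required. In N18, Smo remained below threshold under all 9 alternatives for the level.

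**Figure D2:**
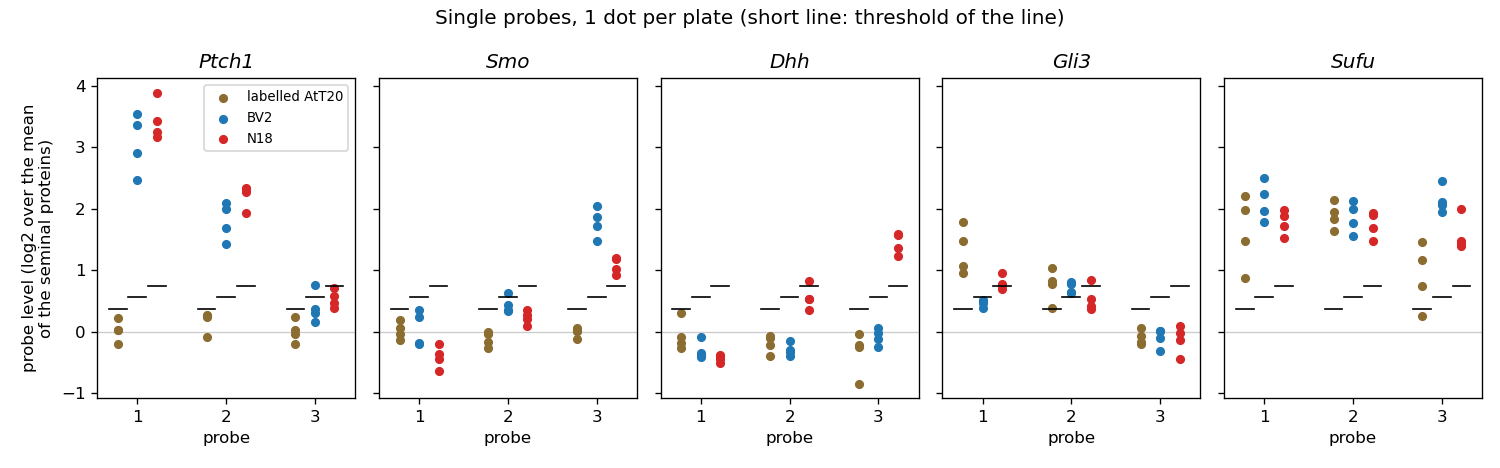
Level of each of the 3 probes of Ptch1, Smo, Dhh, Gli3 and Sufu (log2 over the mean of the seminal proteins), 1 dot per plate, with a short line for each line's threshold. Ptch1 rests on probes 1 and 2, Smo and the Dhh signal in N18 on probe 3, and all 3 probes of Sufu are above the threshold on average in each line.

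Sufu, which binds the Gli factors and keeps them in the cytoplasm, was measured by all of its probes. Its level was 2.37, 1.97, 1.82 and 2.05 in BV2 (2.05 ± 0.23), 1.78, 1.96, 1.54 and 1.55 in N18 (1.71 ± 0.20) and 1.78, 1.92, 1.14 and 1.39 on the plates labelled AtT20 (1.56 ± 0.36). The 3 groups overlapped on this scale, every plate was above its own threshold, and all 3 probes exceeded the threshold in each line. After quantile normalisation Sufu was lower in N18 than in BV2 by a log2 difference of -0.76 (SE 0.12, adjusted p = 7.81e-05), and so was each of its 3 probes (-0.77, -0.56 and -0.94). The call was lost without normalisation (-0.37, adjusted p = 0.192) and relative to the seminal proteins (-0.34, adjusted p = 0.174), where the sign stayed the same. The direction of Sufu on the plates labelled AtT20 depended on the scaling: against BV2 it was 0.88 (adjusted p = 6.25e-06) after quantile normalisation and -0.50 (adjusted p = 0.0402) relative to the seminal proteins, and against N18 it was 1.64 (adjusted p = 3.37e-09) and -0.15 (adjusted p = 0.512).

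Gli3, whose cut form is the main repressor of the pathway, was above threshold only on the plates labelled AtT20, with a level of 0.65, 1.12, 0.48 and 0.85 (0.78 ± 0.27). In BV2 the plates read 0.44, 0.39, 0.41 and 0.38 (0.41 ± 0.03) and in N18 0.65, 0.43, 0.44 and 0.31 (0.46 ± 0.14). On this scale plate 1 of N18 lay within the range of the plates labelled AtT20, and BV2 lay below it. The signal on the plates labelled AtT20 was higher than in BV2 by a log2 difference of 1.44 (SE 0.10, adjusted p = 1.34e-09) and higher than in N18 by 1.57 (SE 0.10, adjusted p = 4.26e-10). Relative to the seminal proteins these differences shrank to 0.37 (adjusted p = 0.00978) and 0.32 (adjusted p = 0.0202), with the same sign and call. The bound was at least 1.1-fold against BV2 and 1.0-fold against N18, which sets no rise there. Probes 1 and 2 carried the signal on the plates labelled AtT20, at 1.32 ± 0.38 and 0.76 ± 0.27, while single probes were above the threshold in the other two lines as well (0.80 ± 0.11 for probe 1 in N18 and 0.72 ± 0.09 for probe 2 in BV2). Probe 3, at -0.09 in that group, was below the threshold in all 3 lines. N18 and BV2 differed by -0.13 (SE 0.10, adjusted p = 0.314), a sign that turned without normalisation (0.02) and relative to the seminal proteins (0.05).

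Gli1, the activator that is itself switched on by the pathway, was below threshold in all 3 lines under all 9 alternatives. Its plates read 0.08, 0.22, -0.02 and 0.01 when labelled AtT20, 0.23, 0.24, 0.12 and 0.01 in BV2, and 0.56, 0.45, 0.37 and 0.39 in N18. On this scale the N18 plates did not overlap those of the other lines, which overlapped each other, though all 3 means were under their thresholds. The direction between the plates labelled AtT20 and N18 turned with the scaling, at 0.26 (adjusted p = 0.0284) after quantile normalisation, 1.02 (adjusted p = 1.06e-07) without normalisation and -0.37 (adjusted p = 0.000531) relative to the seminal proteins. The difference between N18 and BV2 was 0.10 (SE 0.10, adjusted p = 0.484) after quantile normalisation and 0.29 (adjusted p = 0.00698) relative to the seminal proteins. Ptch1, the other member that is a target of the pathway, was thus above threshold in BV2 and N18, where Gli1 was not.

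Counted over the members, 3 of 8 differed between N18 and BV2, where 40.9% of all genes and targets did (19.0% higher in N18 and 21.9% higher in BV2). Dhh was the member that rose in N18, and Smo and Sufu were lower there. The plates labelled AtT20 differed from BV2 in 7 of 8 members, 5 higher and 2 lower, against 73.6% of all genes (47.0% higher and 26.6% lower), and from N18 in 7 of 8, again 5 higher and 2 lower, against 76.4% (48.6% and 27.8%). With 8 members, these counts lie near the shares over all genes, and the comparisons share lines. The median difference of the members was -0.13 for N18 minus BV2 and 0.55 and 0.56 for the plates labelled AtT20 against BV2 and N18, where all genes had -0.06, 0.23 and 0.25. Members called with the same sign under all 3 scalings were 2 for N18 minus BV2 (Dhh and Smo), 2 for the plates labelled AtT20 against BV2 (Gli3 and Ptch1) and 3 against N18 (Gli3, Shh and Ptch1), where 25.9%, 28.9% and 34.7% of all genes and targets were. The calls of Gli1, Shh, Ihh and Dhh concern genes that were below threshold in all lines, and on the plates labelled AtT20 those of Gli1 and Ihh changed sign relative to the seminal proteins. The Shh probes disagreed between those plates and N18. By the probe test, probes 1 and 3 were higher on the plates labelled AtT20 (1.65 and 1.37) and probe 2 was lower (-0.44). Among the single probes, 6 of 24 differed between N18 and BV2, against 27.6% of all probes, 12 between the plates labelled AtT20 and BV2, against 62.5%, and 18 between those plates and N18, against 65.8%.

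**Figure D3:**
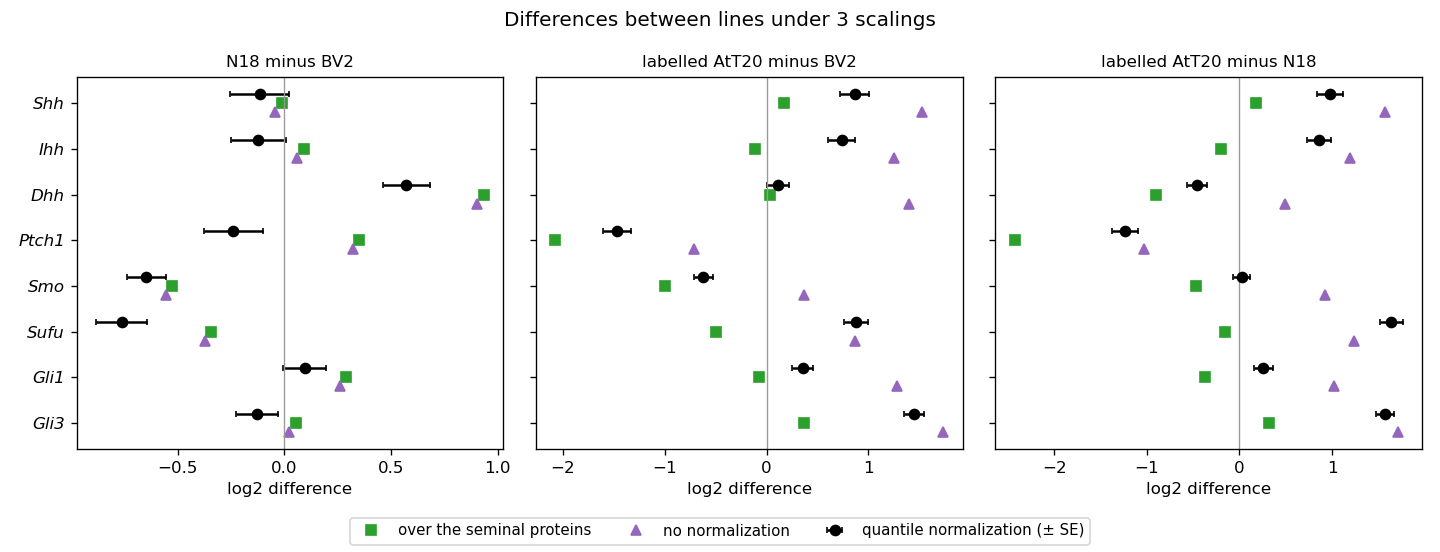
Log2 difference of each of the 8 members for the 3 pairs of lines, with the quantile-normalised value and its SE in black and the values without normalisation and over the seminal proteins in colour. Between N18 and BV2, Dhh and Smo keep call and sign under all 3 scalings, and Gli1, Sufu and Shh keep the sign only. Ptch1 and Gli3 keep call and sign in both comparisons of the plates labelled AtT20. Shh keeps call and sign on those plates against N18, and Shh and Dhh keep the sign only against BV2. In those comparisons Sufu, Gli1 and Ihh change sign relative to the seminal proteins, as does Smo against N18. Smo (against BV2) and Dhh (against N18) change sign without normalisation.

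The members were set beside 44 further genes of the pathway that had probes, of 49 listed by role. Of the 44, 35 were above threshold in N18, 31 in BV2 and 25 with the label AtT20, against 55.4%, 53.3% and 35.0% of all genes and targets. In all 3 lines 22 passed, and how many of all genes and targets did so was not counted. The median level of the 44 was 1.69 in N18, 1.06 in BV2 and 0.59 with the label AtT20. All genes and targets had 0.93, 0.64 and 0.16 in that order. Between N18 and BV2, 15 were higher in N18 and 7 higher in BV2, against 19.0% and 21.9% of all genes and targets. Of these, 14 and 3 kept their call and sign under all 3 scalings, against 18.7% and 7.16% of all genes. With the label AtT20, 25 were higher and 10 lower than in BV2 (47.0% and 26.6% of all genes), of which 3 and 4 kept it (17.2% and 11.7% of all genes). Against N18, 24 were higher and 12 lower (48.6% and 27.8% of all genes), of which 3 and 10 kept it (16.0% and 18.7% of all genes).

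Among the 6 genes listed for making and releasing the ligand, Disp2, of the Dispatched family, showed the largest difference between N18 and BV2. Its level was 4.59 ± 0.18 in N18, -0.12 ± 0.05 in BV2 and -0.00 ± 0.11 on the plates labelled AtT20. It was higher in N18 than in BV2 by 3.93 (SE 0.13, adjusted p = 5.73e-13), a bound of at least 10.0-fold, and higher than on the plates labelled AtT20 by at least 5.9-fold. Disp1, of the same family, was above threshold in all 3 lines (0.50 ± 0.21 with the label AtT20, 1.29 ± 0.14 in BV2 and 1.65 ± 0.14 in N18). It did not pass the test between N18 and BV2 (-0.12, SE 0.11, adjusted p = 0.402), and its sign turned relative to the seminal proteins (0.36, adjusted p = 0.0437). Release of the ligand was not measured. Hhat, the enzyme that adds palmitate to the ligands, was below threshold in all 3 lines. Scube3, a secreted carrier of the ligand, was above threshold in all 3 and higher on the plates labelled AtT20 than in BV2 by 1.54 and than in N18 by 1.82, calls that were lost relative to the seminal proteins (0.37 and 0.13).

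The 6 listed genes that act with the ligand at the cell surface held 3 genes above threshold with the label AtT20, 2 in N18 and 1 in BV2. Over all genes and targets 35.0%, 55.4% and 53.3% passed in that order. Cdon, a co-receptor that helps Ptch1 bind the ligand, was at -0.29 ± 0.15 in BV2, 1.03 ± 0.29 in N18 and 1.91 ± 0.73 with the label AtT20, where it was higher than in BV2 by 3.16 (SE 0.16, adjusted p = 3.26e-11, at least 2.5-fold) and than in N18 by 2.27. Gpc3, a glypican that competes for the ligand, was at 2.26 ± 0.92 with that label, 0.10 ± 0.06 in BV2 and -0.23 ± 0.11 in N18, and was higher on the plates labelled AtT20 than in BV2 and N18 by at least 3.2-fold and at least 2.8-fold. These calls held under all 3 scalings. Boc, the relative of Cdon, passed in BV2 and N18 and was at 0.33 ± 0.20 with the label AtT20, under the threshold of 0.37. For the plates labelled AtT20 minus N18, Boc was 0.59 (adjusted p = 0.000118) after quantile normalisation and -0.46 (adjusted p = 0.00348) relative to the seminal proteins. Minus BV2 it was 0.11 (adjusted p = 0.377) and -0.74 (adjusted p = 5.67e-05). Gas1 and Hhip, a co-receptor and a decoy for the ligand, were below threshold in all 3 lines, Hhip at 0.74 ± 0.06 in N18, at the threshold itself.

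Of 12 genes of the primary cilium, in which Smo and the Gli proteins meet, 8 were above threshold in N18, 6 in BV2 and 3 with the label AtT20, where over all genes and targets 55.4%, 53.3% and 35.0% were. Kif3a, a motor of ciliary transport, was at 0.08 ± 0.08 with the label AtT20, 0.69 ± 0.22 in BV2 and 3.50 ± 0.24 in N18, and was higher in N18 than in BV2 by 2.00 (SE 0.13, adjusted p = 2.75e-09) and higher than on the plates labelled AtT20 by at least 2.5-fold. Tulp3, which carries receptors into the cilium, was at -0.10 ± 0.07, 0.74 ± 0.26 and 2.45 ± 0.24 in the same order, and was at least 1.3-fold higher in N18 than on the plates labelled AtT20. Ift172, a part of the transport train, was above threshold in all 3 lines, and its call against N18 changed sign with the scaling (1.12 after quantile normalisation and -0.58 relative to the seminal proteins). Efcab7, Stk36 and Kif27 were below threshold in all 3 lines.

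The 14 kinases and regulators of Smo and Gli were all above threshold in BV2 and N18, and 10 of them on the plates labelled AtT20. Over all genes and targets 53.3%, 55.4% and 35.0% passed in that order. Grk2 and Arrb2, a receptor kinase and an arrestin that act on active Smo, were higher in BV2 than in N18, with differences of -1.91 (SE 0.12, adjusted p = 1.43e-09) and -1.76 (SE 0.12, adjusted p = 6.7e-09) for N18 minus BV2. The kinases Gsk3b, Csnk1d and Csnk1e, which mark Gli proteins for cutting, were higher in N18 by 1.25, 1.05 and 1.04. Each of these 5 calls held under all 3 scalings. Prkacb, a catalytic subunit of protein kinase A, which also marks the Gli proteins, was at -0.16 ± 0.09 on the plates labelled AtT20 and at 2.53 ± 0.33 and 3.17 ± 0.10 in BV2 and N18, at least 1.7-fold and at least 2.0-fold higher. Prkaca, the other catalytic subunit, was above threshold in all 3 lines (3.51 ± 0.60 with the label AtT20, 3.21 ± 0.42 in BV2 and 4.68 ± 0.23 in N18). All 6 genes of ubiquitin ligases that act on Gli proteins were above threshold in all 3 lines, against the same shares of all genes and targets. Of these, Fbxw11 was higher in N18 than in BV2 by 1.01 (SE 0.11, adjusted p = 1.91e-06) and lower on the plates labelled AtT20 than in N18, by -2.20, under all 3 scalings. Spop, which hands full-length Gli proteins to the proteasome, was higher on the plates labelled AtT20 than in N18 by 2.06, a call lost relative to the seminal proteins (0.56, adjusted p = 0.0959).

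**Figure D4:**
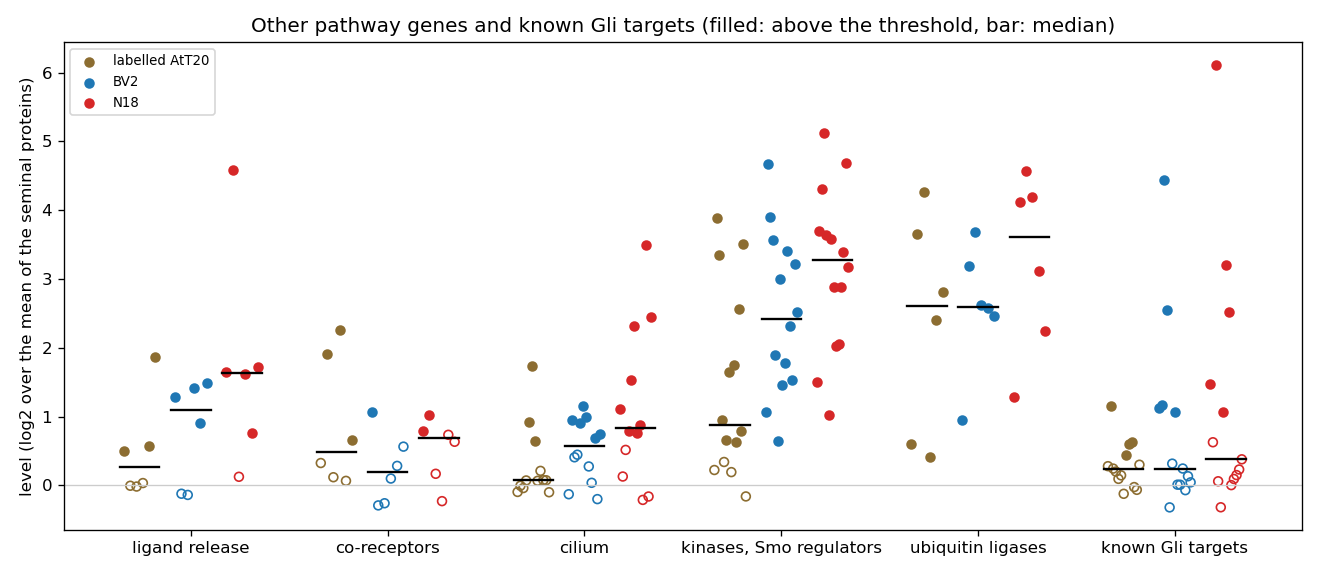
Level of the other pathway genes and of the known Gli targets by role in each line (log2 over the mean of the seminal proteins), 1 circle per gene, the mean of 4 plates, filled where it is above the threshold of the line, with a bar at the median of each group. All 14 kinases and regulators are filled in BV2 and N18, and 8 of 12 cilium genes are filled in N18, 6 in BV2 and 3 with the label AtT20. Over all genes and targets 55.4%, 53.3% and 35.0% passed in N18, BV2 and with the label AtT20.

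The list of genes known as Gli targets in other tissues was examined in the same way, and all 13 had probes. BV2 and N18 each had 5 of them above threshold and the plates labelled AtT20 had 4. Over all genes 53.3%, 55.4% and 35.0% passed in that order. None of the 13 passed in all 3 lines and 4 passed in no line (Foxa2, Sfrp1, Snai1 and Prdm1). Of all 25128 genes and targets, 16981 passed in at least 1 line. Between N18 and BV2, 6 of 13 differed, near the 40.9% of all genes. All 6 kept their call and sign under the 3 scalings, as 25.9% of all genes and targets did. The cell cycle genes Ccnd1 and Foxm1 were higher in N18 by 1.18 (SE 0.11, adjusted p = 1.11e-07) and 1.41 (SE 0.10, adjusted p = 6.38e-09), and Mycn, a growth regulator of neuroblasts, by 1.69 (SE 0.10, adjusted p = 5.73e-10, at least 2.2-fold). Ccnd2, another D-type cyclin, went the other way, at 2.55 ± 0.31 in BV2 and 0.06 ± 0.18 in N18, at least 3.5-fold higher in BV2. Ccnd1 was at 0.24 ± 0.12 on the plates labelled AtT20, against 4.44 ± 0.41 in BV2 and 6.12 ± 0.05 in N18, at least 6.5-fold and at least 19.2-fold higher. Foxm1 was at -0.12 ± 0.06 there and at least 2.1-fold higher in N18. The developmental factors Nkx6-1 and Nkx2-2 were above threshold on the plates labelled AtT20 only (0.63 ± 0.18 and 0.60 ± 0.37), and Bmp4, a growth factor, was at 1.15 ± 0.36 there, 1.16 ± 0.04 in BV2 and 0.63 ± 0.13 in N18, at least 1.3-fold higher on the plates labelled AtT20 than in N18. These genes answer to many other signals, and their levels carry no reading of Gli activity here.

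For each member above threshold in at least 1 line, the genes with the most similar pattern were found by Pearson's r over the 12 quantile-normalised arrays, among 12168 other named genes above threshold in at least 1 line. The pattern is set mainly by the 3 lines, so many genes score highly. Ptch1 was most like Fh1, Snx10 and Pno1 (r = 0.99 each), with 1206 genes at r over 0.9, and Smo was most like Scd1, Afp and Oas2 (r = 0.98 each), with 523. Gli3 was most like Fam20c, Alx4 and Zfp771 (r = 1.00 each when rounded), with 2393, and Sufu was most like Tbkbp1, Pdzd11 and Sh2d6 (r = 0.99 each), with 1212.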

How the data were processed

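Total RNA from 4 plates of each of 3 mouse cell lines was measured on 12 single-colour NimbleGen arrays. The authors read the scans with NimbleScan and deposited log2 values of the Cy3 intensity, 1 for each of 72000 probes. The values show no sign of normalization between arrays, and a background correction is not given in the sources used here. Probes fell into 25631 targets, of which 69.4% were matched to a symbol through RefSeq. A gene's probes were averaged on the linear scale and returned to log2, and its targets averaged, to give a level after subtraction of the mean of 10 seminal proteins on that plate, after the study's statistical methods. Differences between lines came from limma (version 3.58.1, R version 4.3.3, functions lmFit and eBayes with trend, 12 arrays, quantile normalization, Benjamini-Hochberg adjustment over 25128 genes and targets, or 72000 probes, adjusted p under 0.05). The fit was tried on simulated data for N18 minus BV2 only, with the same SD for a gene on all arrays. That trial cannot speak for the comparisons with the plates labelled AtT20. Other steps used Python 3.11.15, numpy 2.4.6, pandas 2.3.3 and matplotlib 3.10.9. p-values rest on the spread between plates of the same line, as 1 estimate per gene pooled over the 3 lines. After quantile normalization this spread was widest on the plates labelled AtT20 for every member. For Shh the SD was 0.38 there, 0.08 in BV2 and 0.03 in N18, and the pooled estimate also entered the test of N18 against BV2. Which arrays shared a slide is not given in the sources used here. With 4 arrays a line, their number limits the precision.

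The members and the lists were chosen with earlier results of these data known. Named were all members, the listed genes that passed the test with a log2 difference of at least 1 (largest first, at most 6 per role and pair), listed genes below threshold in all lines, and the 3 genes most like a member. Boc and Disp1, outside this rule, were named after their values were seen. Of the genes that meet this rule, 1 is not reported here. A fold against a line below threshold is a bound, and levels below threshold have no order. The alternatives were the probe summary, the scaling, the control genes, the SD multiple, the filter, the background correction, the block and leaving out each plate. The mRNA of Gli2, Lrp2, Kif7, Gpr161, Ulk3, Itch and Cd68 is not analysed here.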

Additional observations from a re-analysis of the deposited data

How the results depend on the processing

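Which members passed the threshold held under most of the 9 alternatives for the level. The count of members in N18 rose from 2 to 4 without the highest seminal protein. The count of pathway genes fell from 25 to 16 on the plates labelled AtT20 when at least 2 probes were required, and from 31 to 20 in BV2 with olfactory receptor genes as controls. Leaving out each plate in turn gave 2 to 3 members in the plates labelled AtT20 and N18 and 3 in BV2. For differences between lines, requiring a log2 difference of at least 1 as well left 0 members and 8 pathway genes for N18 minus BV2. It left 2 and 16 for the plates labelled AtT20 minus BV2, and 3 and 23 for those minus N18. Over all 25128 genes and targets it left 2471, 7102 and 7883 in the same order of comparisons. Testing only genes above threshold in at least 1 line left 4 and 3 members that differed in the comparisons with the plates labelled AtT20, since Gli1, Shh, Ihh and Dhh are then not tested. Relative to the seminal proteins, 4 members and 23 pathway genes differed between the plates labelled AtT20 and BV2. On that scale 4413 of all 25128 genes and targets were called higher on the plates labelled AtT20 and 12668 lower. Without normalization 21 member probes differed in this comparison. Among all genes and targets, 18762 were then called higher on the plates labelled AtT20 and 2940 lower. The cause of the other changes was not tested.

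Signs turned as follows. For N18 minus BV2, Ptch1 became 0.32 without normalization and 0.35 relative to the seminal proteins, Gli3 0.022 and 0.0518, and Ihh 0.0596 and 0.0894, while Shh became 0.0329 with the median of probes. Ptch1 was called (-0.24, adjusted p = 0.0454) when only the 8 arrays of this pair were fitted. For the plates labelled AtT20 minus BV2, Smo became 0.37 without normalization, and Gli1 -0.078, Sufu -0.50 and Ihh -0.11 relative to the seminal proteins. Minus N18, Smo became -0.47, Gli1 -0.37, Sufu -0.15 and Ihh -0.20 relative to the seminal proteins, and Dhh 0.49 without normalization. Leaving out each plate in turn moved Dhh for the plates labelled AtT20 minus BV2 between -0.005 and 0.19 (below 0 without plate 4 labelled AtT20) and Smo minus N18 between -0.0395 and 0.0696 (below 0 without plate 3 labelled AtT20). Gli1 minus N18 lost its call without any of plate 2 labelled AtT20 and N18 plates 2, 3 and 4 (adjusted p 0.0585 to 0.0917). With the plate number as a replicate block the counts of members that differed were 3, 7 and 7, as without it. Plates of the same number deviated together with r from -0.11 to 0.32, so the numbers were not taken as pairs, and the block changed no call of a member.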
